A study of Mus musculus with 20 samples.

Results

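Mature microRNA (miRNA) levels after 30 weeks of high fat feeding were set against those at week 0, before the diet. The comparison takes 5 of the 20 arrays of the series, chosen by their titles: 3 arrays of high fat week 30 and 2 of week 0. All mice were males of the double knock-out strain labelled Apobtm2Sgy/Ldltm1Her, so controls and high fat mice alike carried both alleles, which alter the structural protein of low density lipoprotein and its receptor. The week 0 mice were on chow, and the other groups, with 3 arrays each, had 6, 18 or 30 weeks of chow or high fat diet. The labelled tissue was the ascending aorta with atherosclerotic lesion, at every time point including week 0. The labels give weeks on diet and not the age at the start, and they do not say whether each array came from 1 mouse or a pool, so the p-values below measure only the spread between arrays, which may be technical. The comparison asks how the miRNA content of the aorta differs between the start and the longest time on the high fat diet, and the week 30 chow group shows the same span without that diet.

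An miRNA is a short RNA that guides Argonaute proteins to partly complementary messenger RNAs and lowers their output. Bases 2 to 8, the seed, largely decide which messages are bound, so miRNAs with the same seed share many targets. In the artery wall, miR-143 and miR-145 mark contractile smooth muscle, miR-126 marks endothelium, miR-223 and miR-142 mark blood-borne leukocytes, and miR-146a restrains NF-kB signalling. In bulk tissue, fewer cells of a type and less RNA per cell cannot be told apart.

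The mature sequences of the miRNAs the comparison turns on are from RefSeq (GRCm38.p6), 5′ to 3′, with the seed in capitals. The first set is the let-7 group that was lower at week 30, shown because all 6 carry the same seed.
let-7e-5p: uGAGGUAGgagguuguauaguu
let-7f-5p: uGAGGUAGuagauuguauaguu
let-7g-5p: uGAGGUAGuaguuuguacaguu
let-7i-5p: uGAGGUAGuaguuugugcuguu
let-7d-5p: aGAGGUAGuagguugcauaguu
miR-98-5p: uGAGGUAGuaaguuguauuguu

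The second set holds the 3 members of the miR-16 seed group that were lower, and then the 2 miRNAs with the largest negative difference.
miR-16-5p: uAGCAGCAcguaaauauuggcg
miR-195a-5p: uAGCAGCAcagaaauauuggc
miR-497a-5p: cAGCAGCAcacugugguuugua
miR-142a-3p: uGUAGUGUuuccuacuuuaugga
miR-146a-5p: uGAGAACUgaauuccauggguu

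The third set holds 5 of the 10 miRNAs with the largest positive difference, which are not the 5 largest. For example, miR-6969-5p (4.36) is left out, though its difference was larger than that of miR-3057-5p (4.28). The set ends with miR-125b-5p, which has the seed of miR-6394 and another level pattern.
miR-7005-5p: cCUGGGGAugggaggaccagca
miR-3474: cCCUGGGAggagacguggauuc
miR-6354: uGCCCUGGggaucaggucucu
miR-3057-5p: aUUGGAGCugagauucugcgggau
miR-6394: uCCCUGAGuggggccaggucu
miR-125b-5p: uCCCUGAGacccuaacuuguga

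Levels are log2 intensities of 1-colour Agilent arrays, divided on each array by the 75th percentile of a common set, the 192 miRNAs that every array detected. A detected miRNA is one well above background in the scanner's own flags. Of 1881 miRNAs measured, 609 were found on all arrays of some group and were tested with limma, with Benjamini-Hochberg adjustment and a threshold of 0.05. Values below 3.10 were set to that floor and have no order among themselves.

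The 5 arrays were not alike. The week 0 arrays detected 425 and 412 miRNAs, and the week 30 high fat arrays 355, 742 and 645. High fat replicate 1 had a 75th percentile of 254 intensity units, against 1372 and 908 in replicates 2 and 3. Over the 192 miRNAs its log2 differences from replicates 2 and 3 had SDs of 1.23 and 1.20, while replicates 2 and 3 differed from each other with an SD of only 0.18. The week 0 pair had an SD of 0.75, and the median over 17 pairs of one group on one slide was 0.95. Replicates 2 and 3 differed by more than the spread between repeated spots, which is 0.025 on the same scale, but repeat arrays of 1 RNA would do so too, and whether the 2 hold separate RNA samples was not tested. They enter the fit as 2 arrays, as labelled, and the count of calls is also given with them averaged to 1. Week 18 high fat replicate 3, on the same slide, was as close to replicate 2 (SD 0.19). Both week 0 arrays lie on slide 1 and all 3 high fat week 30 arrays on slide 3, each slide with its own scan session, so slide and group cannot be told apart in any result of this comparison.

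At week 30 on high fat, 98 miRNAs were higher and 26 were lower than at week 0. The lower ones were mostly well-known miRNAs: 6 of the let-7 seed group, miR-16-5p with 2 members that share its seed, the leukocyte miRNA miR-142a-3p and the NF-kB-linked miR-146a-5p. Most of the higher ones were miRNAs with high catalogue numbers, such as miR-7005-5p, and 39 of the 98 were not well above background on any week 0 array. An miRNA could enter the test by detection in some other group, and a level at the floor at week 0 could only rise. The filter and floor thus left these 39 little room to come out lower. With only the 265 miRNAs detected on all 5 arrays, an alternative chosen after seeing the data, 73 were higher and 28 lower. In the fit on all 609, 124 were called, or 20.4%, with 16.1% higher and 4.27% lower, and the smallest adjusted p (limma) was 0.0231. At an unadjusted p under 0.05 there were 233. The called differences ran from 1.38 to 5.10 (median 2.67) for the higher and from -1.28 to -3.34 (median -1.80) for the lower, on the log2 scale. The median over all 609 was itself 0.43 above 0, and 63.1% of them had a positive difference and 36.9% a negative one.

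**Figure D1:**
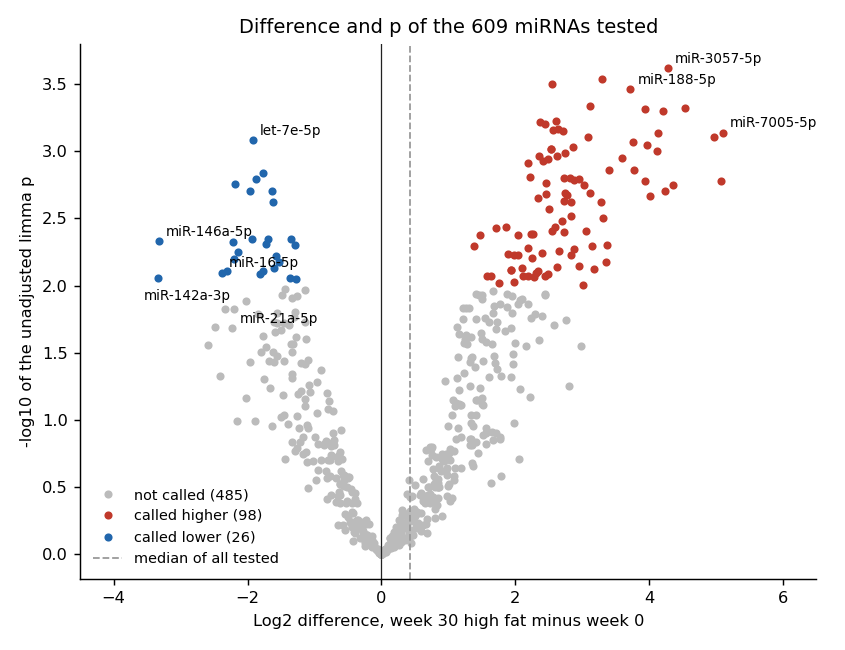
Log2 difference of each of the 609 miRNAs, week 30 high fat minus week 0 (x axis), against -log10 of its unadjusted limma p (y axis). The 98 called higher (red) reach 5.10 and the 26 called lower (blue) reach -3.34, and the dashed line marks the median of all tested, 0.43.

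These counts rest on few arrays. With near-identical replicates 2 and 3 averaged to 1, no miRNA was called (smallest adjusted p, limma, 0.0603), and the same held when week 0 replicate 1, week 0 replicate 2, or high fat replicate 2 or 3 was left out, while leaving out high fat replicate 1 gave 55 (48 higher, 7 lower). The split also moved with the scaling: with the percentile taken over all miRNAs it was 42 higher and 109 lower (17.9% of all tested lower), and with quantile normalization 67 and 71 (11.7% lower), although each of the 98 and of the 26 kept its direction under both; without scaling none was called, and with normexp background correction 42 were (5.25% of all tested higher and 1.64% lower).

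The let-7 family restrains growth and cell cycle genes and is abundant in differentiated tissue. Of its 11 listed members tested, 6 were called lower and none higher, against 4.27% lower among all tested, and the list's median difference was -1.54. let-7e-5p read 9.86 and 9.74 at week 0 and 7.59, 8.13 and 7.91 at week 30 on high fat, a difference of -1.92 ± 0.48 (SE; adjusted p, limma, 0.0231). The 2 groups were well separated, with all 3 high fat arrays below both week 0 arrays and close to one another. Another abundant member, let-7f-5p, read 11.94 and 12.12 at week 0 and 9.81, 10.63 and 10.34 on high fat (difference -1.77 ± 0.47, adjusted p, limma, 0.0233). For let-7g-5p the week 0 arrays were at 11.23 and 11.31, and the high fat arrays at 8.27, 10.23 and 9.87. Here replicate 1 lay far below the other high fat arrays, and the difference of -1.82 had an SE of 0.61.

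The other called members were let-7i-5p (-1.73), miR-98-5p (-1.63) and let-7d-5p (-1.54). Among those that missed the threshold, let-7a-5p differed by -1.43 (adjusted p, limma, 0.0516), let-7c-5p by -1.15 and let-7b-5p by -0.86. In let-7b-5p the groups overlapped, with 12.52 and 12.40 at week 0 and 12.54, 11.20 and 11.06 on high fat. The scarce let-7k, detected on only 1 week 0 array, had the list's one positive difference (0.85), which turned negative under quantile normalization and with the percentile over all miRNAs. The list's median stayed between -1.45 and -2.53 over the scalings and background correction tried. Called members were 3 without high fat replicate 1, and none without either week 0 array. The members differ from one another by a few bases outside the seed, so a probe may bind more than 1 of them, which was not tested.

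By the scanner files' own probe positions (mm9), let-7e-5p lies at chr17:17967334-17967351, and let-7f-5p has loci on chromosome 13 (chr13:48633206-48633226, minus strand) and on the X chromosome (chrX:148346897-148346917). The X-linked locus is a close neighbour of miR-98-5p (chrX:148347773-148347793), and let-7d-5p lies beside the other locus at chr13:48631400-48631417. Both were among the 6 called lower.

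The miR-15 and miR-16 group, whose best known targets are cyclins and BCL2, had 3 of 7 listed members called lower and none higher, against 4.27% lower among all tested, with a median of -1.96. miR-16-5p read 10.44 and 11.09 at week 0 and 6.63, 9.36 and 9.17 on high fat, a difference of -2.38 ± 0.80 (adjusted p, limma, 0.0443), or 5.22-fold lower. For miR-195a-5p the readings were 9.72 and 9.56 against 5.76, 8.35 and 8.16 (-2.22 ± 0.69, adjusted p, limma, 0.0365). In both, high fat replicate 1 was lower than the other high fat arrays by over 2 log2 units, and the groups did not overlap. miR-497a-5p, which lies next to miR-195a-5p on chromosome 11, showed no such gap: 9.23 and 8.95 at week 0, and 7.95, 7.81 and 7.66 on high fat (-1.28 ± 0.44).

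The other members were not called. miR-15a-5p differed by -1.96 and miR-322-5p by -1.80, each below week 0 on every high fat array and lowest on replicate 1. miR-15b-5p, with 9.49 and 11.08 at week 0 and 10.13, 7.38 and 7.28 on high fat, overlapped between the groups. Without high fat replicate 1 the list's median was -1.36 and no member was called, and with the percentile over all miRNAs 5 of the 7 were lower, against 17.9% of all tested.

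The leukocyte miRNA miR-142a-3p and the NF-kB-linked miR-146a-5p had the largest negative differences, in an order that turned with the floor (-3.34 and -3.63 with a floor lower by 1). miR-142a-3p read 7.49 and 9.47 at week 0 and 3.29, 6.20 and 5.93 on high fat, and it was not well above background on replicate 1; the difference was -3.34 ± 1.13 (adjusted p, limma, 0.0447). With 1 of 3 high fat arrays unmeasured no fold is given, and under normexp background correction the difference was -1.64 and not called (adjusted p, limma, 0.139). Its level was not on a straight path, since the week 6 high fat arrays were at 8.28, 11.33 and 11.93 and the week 30 chow arrays at 7.63, 7.55 and 7.48. Of 4 macrophage and myeloid miRNAs tested, this was the 1 called lower, against 4.27% of all tested, and the list's median was -2.10. All 4 were called lower with the percentile over all miRNAs (17.9% of all tested lower) and with quantile normalization (11.7%), and none with normexp (1.64%). miR-223-3p, the neutrophil and monocyte miRNA, read 8.56 and 8.42 at week 0 and 6.69, 7.09 and 6.87 on high fat; the groups did not overlap, but the difference of -1.61 missed the threshold (adjusted p, limma, 0.0679). The opposite arm miR-142a-5p differed by -2.60 and miR-511-3p, from the macrophage mannose receptor gene, by -1.35, both uncalled. The summed level of the 4 myeloid markers was 9.25 to 10.26 at week 0 and 6.82 to 7.88 on high fat, with no overlap, and its part in the other differences was not tested.

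miR-146a-5p, which lowers the NF-kB adaptors TRAF6 and IRAK1, read 5.38 and 7.94 at week 0 and 3.10, 3.55 and 3.36 on high fat. All 3 high fat arrays were at or close to the floor, and the week 0 arrays were 2.56 log2 units apart. The difference was -3.33 ± 1.03 (adjusted p, limma, 0.0365), and with normexp it was -0.62 and not called (adjusted p, limma, 0.589). miR-155-5p, the inflammatory miRNA of macrophages and lymphocytes, showed the same gap at week 0 (4.69 and 8.61) and overlapped with high fat (6.10, 4.64 and 4.89). Its difference of -1.44 was far from the threshold (adjusted p, limma, 0.35) and turned to 0.52 without week 0 replicate 2. The lymphocyte miRNA miR-150-5p also stood higher on week 0 replicate 2 (10.06) than on replicate 1 (7.23), with 8.62, 5.48 and 5.39 on high fat. No lymphocyte miRNA of 5 tested was called. With the percentile over all miRNAs 1 was called lower, where 17.9% of all tested were, and with quantile normalization 2, where 11.7% were.

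Another 2 of the 10 largest negative differences are low-level miRNAs. miR-182-5p, of sensory and epithelial tissue, read 5.60 and 4.58 at week 0 and 3.17, 3.10 and 3.10 on high fat (-1.97 ± 0.54, adjusted p, limma, 0.0240). miR-31-5p, an miRNA that responds to vessel injury, read 4.92 and 5.91 against 3.10, 3.73 and 3.59 (-1.94 ± 0.60, adjusted p, limma, 0.0359). Both high fat groups lay close to the floor, and with normexp background correction both differences turned slightly positive (0.22 and 0.10) and were not called; miR-374c-5p (-2.20) and miR-379-5p (-1.58) did so too, at 0.014 and 0.30. Of 7 vascular injury miRNAs tested, miR-31-5p was the 1 called, against 4.27% of all tested lower. With the percentile over all miRNAs 3 were called lower (17.9% of all tested), with quantile normalization 2 (11.7%) and with normexp none (1.64%).

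In contrast, miR-6412 and miR-3968 changed with little spread. miR-6412 read 7.56 and 7.54 at week 0 and 5.33, 5.35 and 5.38 on high fat (-2.19 ± 0.60, adjusted p, limma, 0.0233). The abundant miR-3968 read 12.58 and 12.53 against 10.43, 10.35 and 10.46 (-2.14 ± 0.68, adjusted p, limma, 0.0388). High fat replicate 1 did not stand apart in either.

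From the miR-17~92 cluster and its paralogs, growth-promoting miRNAs activated by MYC, 1 of 12 tested was called, against 4.27% of all tested lower: miR-20b-5p, from the X-linked paralog, read 6.64 and 7.74 at week 0 and 3.66, 5.55 and 5.44 on high fat (-2.30 ± 0.77, adjusted p, limma, 0.0442). The list's median was -1.39. miR-20a-5p (-2.34) and miR-19b-3p (-2.49) had differences as large, with adjusted p (limma) of 0.0606 and 0.0716, and were about 3 or more log2 units lower on high fat replicate 1 than on the other 2. With the percentile over all miRNAs 8 of the 12 were called lower, where 17.9% of all tested were, with quantile normalization 6, where 11.7% were, and with normexp none.

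The remaining called lower miRNAs include the seed partners miR-99a-5p (-1.70) and miR-100-5p (-1.36), which lower mTOR, and miR-10a-5p (-1.60) of the Hox clusters. These 3 were detected on all 5 arrays, as were 14 of the 26. Another tested miRNA with the seed of miR-99a-5p, miR-99b-5p, was not called (-0.49).

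**Figure D2:**
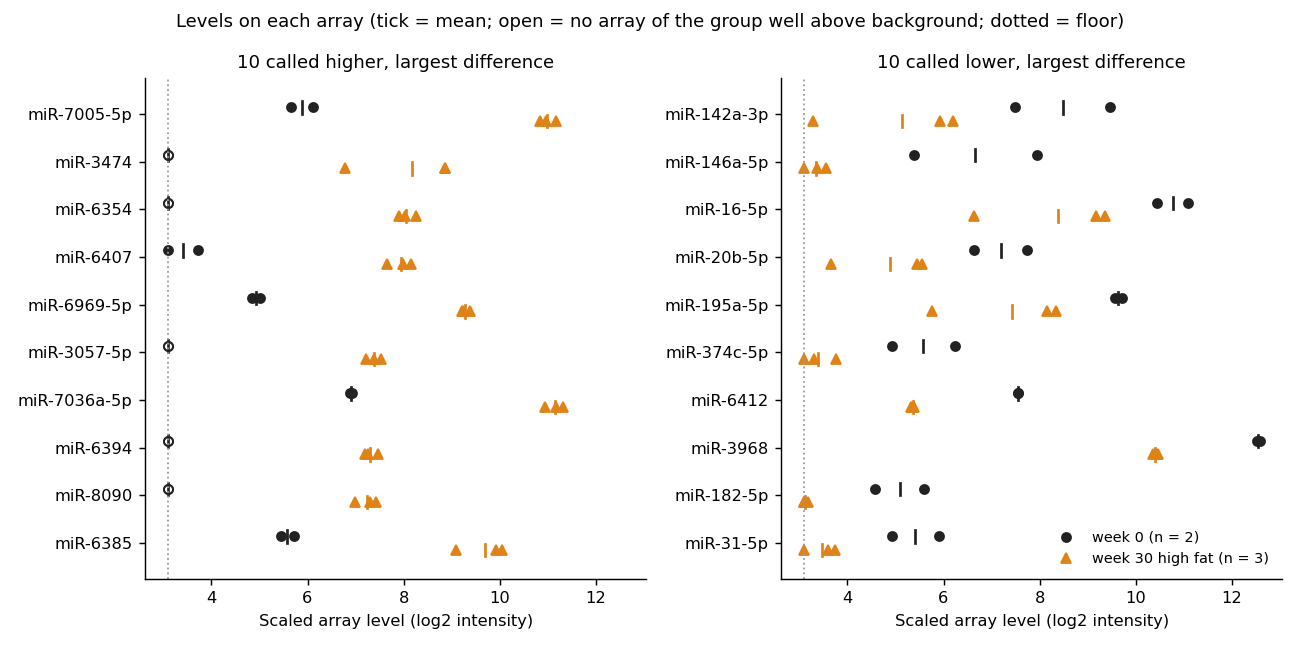
Scaled level (log2 intensity, x axis) on each array for the 10 called higher (left) and 10 called lower (right) with the largest differences. Circles are the 2 week 0 arrays and triangles the 3 week 30 high fat arrays, ticks are group means, open circles mark miRNAs not well above background on any week 0 array, and the dotted line is the floor of 3.10. The 20 were chosen for their size among called miRNAs whose groups do not overlap, so their separation was set by the choice. Over all tested the groups do not overlap in 38.6% (higher) and 18.4% (lower). In miR-142a-3p, miR-16-5p, miR-20b-5p and miR-195a-5p, 1 triangle lies far left of the other 2.

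Among the higher miRNAs detected at week 0, miR-7005-5p had the largest difference. It read 6.12 and 5.67 at week 0 and 10.83, 10.96 and 11.17 on high fat, a difference of 5.10 ± 1.25 (adjusted p, limma, 0.0231), or 34.3-fold. In RefSeq it lies within the span of Lama5, a laminin chain of basement membranes. miR-7036a-5p, within Srrt, read 6.89 and 6.92 against 10.95, 11.18 and 11.31 (4.24 ± 1.17, adjusted p, limma, 0.0240). Within Pml, miR-6385 read 5.72 and 5.44 against 9.09, 9.93 and 10.05 (4.11 ± 1.04). miR-6969-5p, within Clps, read 5.01 and 4.84 against 9.22, 9.24 and 9.38 (4.36 ± 1.19). In all 4 the 3 high fat arrays lay within 1 log2 unit of each other and over 3 units above week 0, and high fat replicate 1 did not stand apart as it did among the lower miRNAs.

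Of the 10 with the largest positive difference, 5 were not well above background at week 0, so only a lower bound of the fold can be given. It sets the high fat mean against, on each week 0 array, the lowest signal of a detected miRNA or the miRNA's own signal if higher. miR-6354 read 8.25, 8.02 and 7.91 on high fat, at least 50.7-fold higher. miR-3474 read 6.77, 8.87 and 8.85, at least 40.5-fold higher, with replicate 1 lower than the other 2. The bounds for miR-3057-5p (7.38, 7.22 and 7.53), miR-8090 and miR-6394 were 31.5-fold, 28.5-fold and 19.7-fold. The lowest detected signals behind these bounds, 2.10 and 2.69 on the week 0 arrays, lie under the common floor of 3.10. Against that floor, as in the fit, the folds were 31.2 for miR-6354, 33.6 for miR-3474, 19.4 for miR-3057-5p, 17.6 for miR-8090 and 18.5 for miR-6394, so the place of these 5 beside miR-7005-5p depends on the floor. With a floor lower by 1, the fitted differences of miR-6354 (5.94), miR-3474 (5.40), miR-3057-5p (5.28) and miR-8090 (5.14) passed that of miR-7005-5p (5.10). The adjusted p (limma) was 0.0231 for miR-6354, miR-3057-5p, miR-8090 and miR-6394 and 0.0233 for miR-3474. The last of the 10, miR-6407, was detected on 1 of the 2 week 0 arrays (3.71 and 3.10) and read 7.66, 8.00 and 8.16 on high fat. No function is given here for these miRNAs, which were catalogued late and are little studied.

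miR-6394 has the seed of miR-125a-5p and miR-125b-5p, long known miRNAs of the blood and vessel wall. The seed partners differed in level pattern: miR-125b-5p read 11.78 and 11.98 at week 0 and 11.96, 10.93 and 10.94 on high fat (-0.60), and miR-125a-5p differed by -0.52, neither called. For 2 seeds both tested members were higher: miR-3473b (2.72) with miR-3473e (3.29), and miR-5110 (3.40) with miR-7081-5p (2.88).

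A list of entries that are GC-rich or overlap ribosomal RNA had 2 of 12 tested called higher and none lower, where 16.1% of all tested were higher; its median was 1.12. miR-709 read 8.41 and 9.26 at week 0 and 11.77, 11.43 and 11.51 on high fat (2.73 ± 0.82, adjusted p, limma, 0.0345), and miR-1895 read 6.49 and 6.75 against 9.30, 9.35 and 9.44 (2.74 ± 0.70, adjusted p, limma, 0.0231). From the imprinted Dlk1-Dio3 cluster, miR-134-5p was higher, with 4.16 and 3.69 against 6.32, 6.34 and 6.57 (2.49 ± 0.64, adjusted p, limma, 0.0231), and miR-379-5p was lower, out of 14 tested. Among these 14 listed members that is 1 in each direction, where 16.1% of all tested were higher and 4.27% lower. The list does not hold every miRNA of the region. miR-3072-5p, which is not on it, lies near miR-134-5p on chromosome 12 (chr12:110986113-110986124, mm9) and was also called higher (2.37). miR-494-3p of the same cluster read 10.87 and 10.52 against 13.31, 13.27 and 13.23; the groups did not overlap, and its difference of 2.58 had an adjusted p (limma) of 0.0697.

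The called miRNAs shared features that the comparison did not use. Of the 609 tested, 496 matched 1 mature sequence in RefSeq. The median share of G and C was 61.9% in the 79 higher miRNAs with a sequence, 43.2% in the 24 lower and 54.5% in all 496, and the median share of G alone was 45.5% in the higher and 31.8% in all. A first base of U, which Argonaute prefers, was found in 58.3% of the lower, 30.4% of the higher and 42.9% of all. By position in RefSeq, 67 of the 79 higher (84.8%) lie within the span of a protein-coding gene on either strand, against 9 of 24 lower (37.5%) and 67.5% of the 496. Catalogue numbers over 1000, a limit chosen after the values were seen, were carried by 85 of the 98 higher, 3 of the 26 lower and 47.6% of all tested.

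Across the 496 miRNAs the difference went with base composition (Pearson r 0.52, Spearman rho 0.58, given as a description, since all points share the same 5 arrays). The median difference was -0.66 at 30 to 40% G and C, -0.75 at 40 to 50%, 0.51 at 50 to 60%, 1.33 at 60 to 70% and 1.55 from 70% up. The last of these bins held 40 miRNAs, 12 of them higher (30%) and none lower, against 16.1% higher and 4.27% lower among all tested. Relative to the week 0 mean, the 172 miRNAs with 60% or more stood above the 157 under 50% by a median gap of 2.61, 1.79 and 2.02 log2 units on the 3 high fat week 30 arrays. The gap was not limited to that group: it was 2.38 on week 18 chow replicate 1, 2.05 and 1.72 on week 18 high fat replicates 1 and 3, and 1.47 on week 6 high fat replicate 1, while the week 30 chow arrays had 0.68 to 1.11. A change of scaling by one factor per array cannot alter these gaps except at the floor, and the part of base composition in the calls was not tested.

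**Figure D3:**
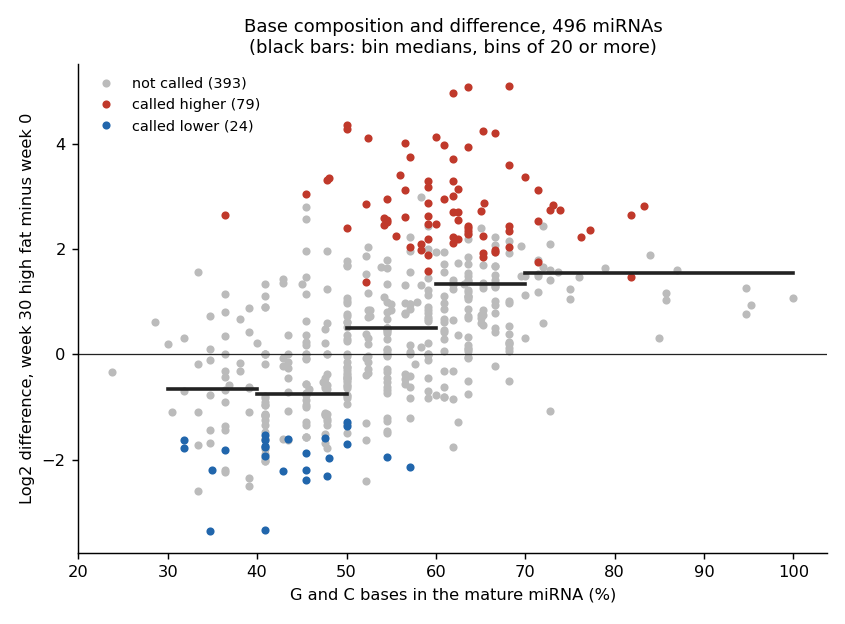
Share of G and C in the mature miRNA (x axis, percent) against the log2 difference, week 30 high fat minus week 0 (y axis), for the 496 miRNAs with a RefSeq sequence. Red points are called higher (79), blue points called lower (24), and black bars are medians of bins with 20 or more miRNAs, which go from -0.66 at 30 to 40% to 1.55 from 70% up.

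Of the markers of the aortic wall, smooth muscle miR-143-3p and miR-145a-5p and endothelial miR-126a-3p were detected on all 5 arrays, and those of neurons, miR-124-3p and miR-9-5p, were not well above background on any. The contractile smooth muscle miRNA miR-143-3p read 11.04 and 10.49 at week 0 and 8.95, 11.02 and 11.01 on high fat, overlapping between the groups (-0.44 ± 0.61). miR-145a-5p, from the same transcript, read 9.40 and 9.21 against 9.98, 9.51 and 9.57 (0.38 ± 0.40). The intervals of these differences (95%) were -1.68 to 0.81 and -0.45 to 1.20, which leave room for a change in either direction at this number of arrays. Endothelial miR-126a-3p read 12.59 and 11.91 at week 0 and 9.53, 11.35 and 11.17 on high fat; the groups did not overlap, and the difference of -1.57 missed the threshold (adjusted p, limma, 0.0978). The fibroblast miRNAs miR-199a-5p (-0.40) and miR-214-3p (0.67) went in opposite directions, and neither was called. Their summed level overlapped between the groups, with 8.54 to 8.57 at week 0 and 8.35 to 8.78 on high fat.

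Of the other cells' markers, the sums for red cells and for epithelium were separated between the groups. Those for striated muscle and for adipose tissue (11.94 to 12.78 at week 0, 11.36 to 13.15 on high fat) overlapped. Red cell miR-451a, among the brightest here, read 13.03 and 12.35 at week 0 and 9.42, 11.14 and 10.90 on high fat (-2.20, adjusted p, limma, 0.0606). The summed red cell markers went from 12.40 to 13.07 at week 0 to 10.17 to 11.23 on high fat. At week 0 that sum was close to miR-451a alone, and another red cell marker, miR-144-3p, differed by only 0.19. The epithelial sum was 7.11 to 7.13 at week 0 and 5.31 to 6.34 on high fat. None of its 7 markers was detected on all 5 arrays, and 5 of the 7 were detected on no week 0 array. Single members went both ways, with miR-203-3p at -1.89 and miR-205-5p at 0.68, neither called. Of the miRNAs of heart and skeletal muscle, miR-133a-3p read 7.02 and 10.21 at week 0 and 12.21, 9.58 and 9.37 on high fat, and miR-1a-3p read 7.51 and 10.48 against 7.37, 10.33 and 10.08. Both were about 3 log2 units higher on week 0 replicate 2 than on replicate 1, and neither was called. The summed level of the 6 striated muscle markers ranged from 9.03 to 12.14 at week 0 and from 11.52 to 13.60 on high fat, with the heart markers miR-208a-3p and miR-499-5p not well above background on any of the 5. The part of these other cells in the miRNA differences was not tested.

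Several miRNAs often followed in atherosclerosis were not called. miR-21a-5p, raised in many injured and fibrotic tissues, read 10.59 and 11.70 at week 0 and 6.62, 10.10 and 10.01 on high fat; replicate 1 was more than 3 log2 units below the others, and the difference of -2.23 ± 0.88 had an adjusted p (limma) of 0.0717. miR-221-3p (-0.58), the hypoxia miRNA miR-210-3p (-0.05), miR-34a-5p (-0.95), miR-204-5p (-0.78) and miR-29b-3p (0.10) had adjusted p (limma) of 0.171 or more. The liver miRNA miR-122-5p was not detected at week 0 and read 3.10, 5.49 and 5.26 on high fat (adjusted p, limma, 0.180). miR-33-5p, from the cholesterol regulator gene Srebf2, was not well above background on any of the 5 arrays and was not tested. Of 6 other cholesterol and lipid regulators tested, none was called, while 5 were called lower with the percentile over all miRNAs and 2 with quantile normalization, where 17.9% and 11.7% of all tested were lower. Among them miR-148a-3p, which lowers the LDL receptor, came nearest in the fit as reported, with 8.09 and 8.22 against 4.40, 7.10 and 6.90 (-2.02, adjusted p, limma, 0.0560).

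**Figure D4:**
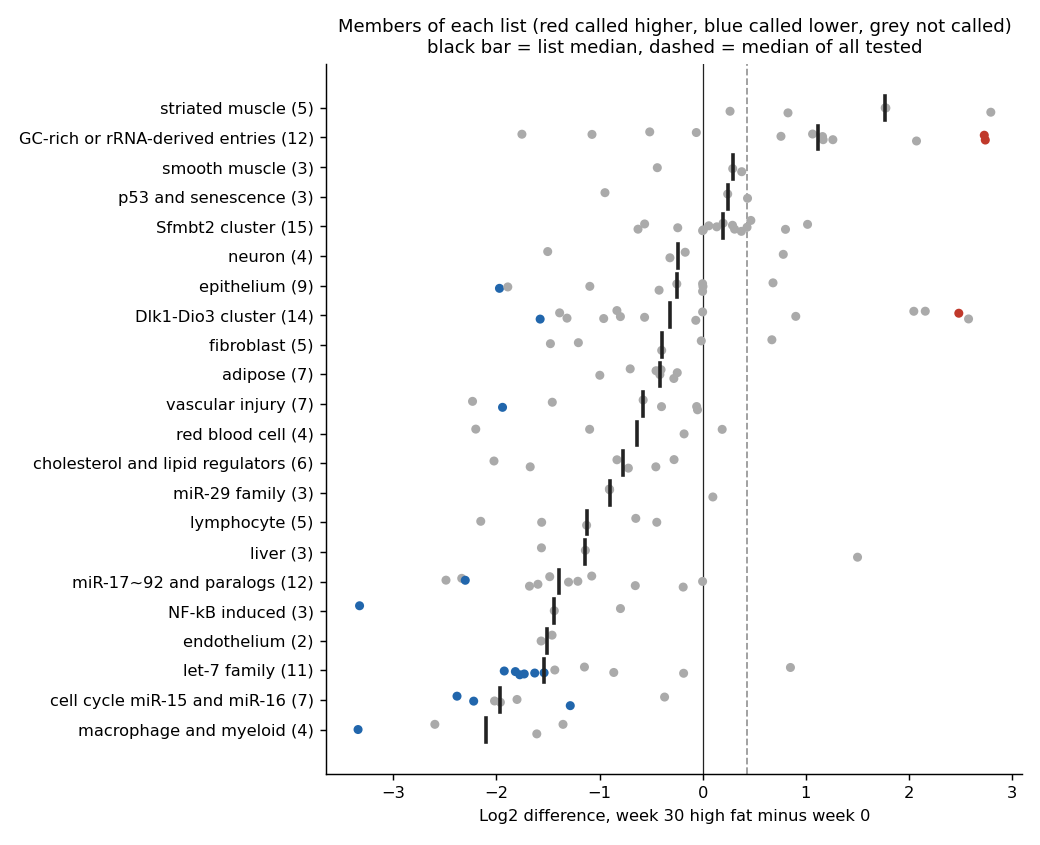
Log2 difference, week 30 high fat minus week 0 (x axis), of each tested member of the 22 lists, with the number tested after each name. Red points were called higher and blue lower, black bars are list medians and the dashed line is the median of all tested (0.43); the let-7 family has 6 blue points and the miR-15 and miR-16 list 3.

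Over the same 30 weeks on chow, against the same 2 week 0 arrays, no miRNA was called of 609 (0%; smallest adjusted p, limma, 0.195; 131 at an unadjusted p under 0.05). The difference between the diets at week 30, which is the test of whether the 2 changes differ, gave none either (0%; smallest adjusted p, limma, 0.185; 102 at an unadjusted p under 0.05). Fitted on only the groups compared, the chow change gave 116 calls and the difference between the diets 117. In the fit on all groups, a call on high fat alone is thus not shown to be a difference between the diets. All 3 week 30 chow arrays lie on slide 2. Slide and group therefore cannot be told apart in the chow change or in the difference between the diets. For the 98 higher miRNAs the median difference was 2.67 on high fat, 1.49 on chow and 1.25 between the diets, and for the 26 lower it was -1.80, -0.89 and -1.0, beside 0.43, 0.52 and -0.14 over all tested. All 3 comparisons share arrays, and the 124 were chosen on the week 0 and high fat week 30 arrays. The direction of these medians is partly set by that choice. miR-7005-5p, for one, read 9.56, 10.54 and 10.75 on the week 30 chow arrays, close to its high fat levels, with a difference between the diets of 0.70. miR-3057-5p was at 4.30, 5.40 and 6.16 on chow, below all 3 high fat arrays (difference between diets 2.09). For let-7f-5p the chow arrays were at 11.84, 11.14 and 11.28, between week 0 and high fat, and for miR-195a-5p they were at 9.11, 9.38 and 8.90.

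Week 6 on high fat shares slide 1 with week 0, so it gives the early change within a slide. No miRNA was called there (0%; smallest adjusted p, limma, 0.520; 46 at an unadjusted p under 0.05). The median differences of the 98 and the 26 at week 6 were 0.77 and -0.44, beside 0.51 over all tested. Both sets were chosen in part by their levels on the same week 0 arrays, so the direction of these medians is partly set by that choice.

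The median level of the 98 higher miRNAs was 4.12 and 4.0 on the week 0 arrays and 7.17, 6.92 and 7.09 on the high fat week 30 arrays. On chow at week 30 it was 5.43, 6.03 and 6.03. Single arrays of other groups lay at or near the high fat level, with 7.08 on week 18 chow replicate 1, whose group mates were at 4.08 and 5.87, and 7.33 on replicate 1 of week 18 high fat. The third replicate of the latter group, at 6.74, lay below all 3 high fat week 30 arrays. The median of the 26 lower was 8.02 and 8.32 at week 0 and 5.54, 6.51 and 6.35 on high fat, with 6.62 and 6.69 on replicate 1 of week 18 chow and replicate 3 of week 18 high fat. Those 2 arrays and high fat week 30 replicate 1 were among the 4 with the fewest detected miRNAs (316, 328 and 355), and without those 4 arrays 170 miRNAs were called, 116 higher and 54 lower.

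**Figure D5:**
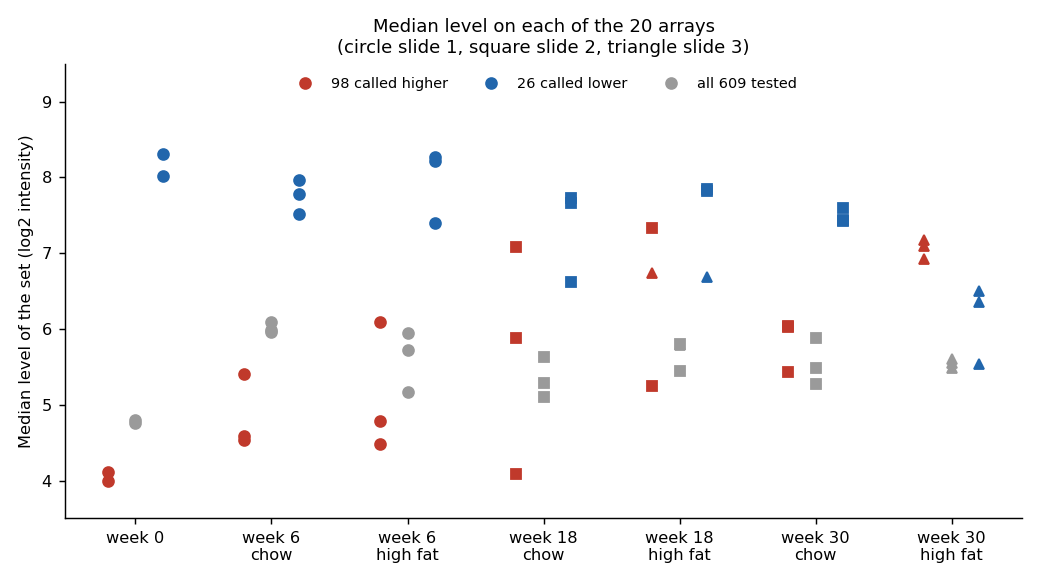
Median level (log2 intensity, y axis) of the 98 miRNAs called higher (red), the 26 called lower (blue) and all 609 tested (grey) on each of the 20 arrays, by group (x axis), with the marker shape giving the slide. The high fat week 30 arrays have red medians of 6.92 to 7.17 against 4.0 and 4.12 at week 0, and 2 week 18 arrays, at 7.08 and 7.33, lie as high.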

How the data were processed

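Total RNA was labelled with Cy3 and hybridised to Agilent mouse miRNA arrays, 1 per sample. Per the file headers and the submitters' processing notes, the authors scanned and extracted them with Agilent Feature Extraction 11.5.1; the deposited processed signal is a background-subtracted, spatially detrended intensity with no scaling between arrays, and the deposited value table held the same intensities for all 20 arrays. Control spots and spots flagged as outliers were left out, the spots of a probe were averaged, then the probes of an miRNA, and a probe counted as detected when at least 0.5 of its spots were flagged well above background. Arrays were scaled, floored and set on a log2 scale, and limma 3.58.1 (R 4.3.3) was fitted to all 20 arrays in 7 groups (13 residual degrees of freedom). The fit was tested on simulated data. Named miRNAs are the 10 called with the largest difference in each direction, among those whose groups do not overlap. List members with the smallest p, a panel of 20 and seed partners are also named. The members and lists were chosen with earlier results of these data known. Replicate numbers were shared by 2 pairs of arrays only, with correlations of their deviations of 0.037 and 0.041, and were not taken as pairs. Written slide positions and file positions differ for all 3 high fat week 30 arrays, within their group. They also differ for week 18 chow replicates 1 to 3 and week 18 high fat replicates 1 and 2, which share slide 2. The groups follow the titles, and which position is right was not tested.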

Additional observations from a re-analysis of the deposited data

How the results depend on the processing

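The count of 124 stayed within 1.5 times under 12 of the alternatives tried for it (93 to 170). Under the other alternatives it moved further, from 0 to 402. The 93 calls were out of only 192 miRNAs and the 101 below out of 265. Both are larger shares than the 124 of 609 (20.4%). For 1 of the 12, the deposited value table, the count was fixed in advance, since it holds the same intensities. A like count did not mean the same calls. The percentile over all miRNAs gave 151 calls, 67 of them among the 124, and quantile normalization gave 138, 85 of them among the 124. Each of the 98 higher miRNAs kept its direction under every alternative that tested it. Of the 26 lower, 7 turned under normexp and none under the others. The groups of all 124 do not overlap, so leaving out, averaging or weighting arrays could not turn a direction. Only alternatives that change the levels themselves or add a block could. No miRNA was called without scaling (smallest adjusted p, limma, 0.197; 125 at an unadjusted p under 0.05) or with replicates 2 and 3 averaged (218 at an unadjusted p under 0.05). Normexp gave 42 and no detection filter 6. Fitting only the groups compared gave 215, and 116 for chow and 117 for the difference between the diets; array weights, whose estimation stopped before it converged, gave 402, 269 and 270, with high fat weights of 0.22, 11.8 and 3.81. Without a detection filter, chow, the difference between the diets and week 6 gave 1, 10 and 1. Leaving out 1 of the 5 arrays in turn gave 0 to 55 for the main comparison, and 133 to 222 at an unadjusted p under 0.05 (limma). The replicate block gave 156 calls, 122 of them among the 124, and the slide as a random block 123 (correlation 0.0038). The last 3 alternatives, without week 18 high fat replicate 3 (103), without the 4 arrays with the fewest detected miRNAs (170) and with only the 265 miRNAs detected on all 5 arrays (101), were chosen after seeing the data. The cause of these moves was not tested.

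Some differences changed sign, among them 4 that had been called lower and lost the call under normexp (miR-182-5p, miR-31-5p, miR-374c-5p and miR-379-5p). Under normexp miR-204-5p was 0.0018, miR-210-3p 0.12, miR-221-3p 0.19, miR-511-3p 0.29, miR-182-5p 0.22, miR-31-5p 0.10, miR-374c-5p 0.014 and miR-379-5p 0.30. With the percentile over all miRNAs, let-7k was -0.17, miR-145a-5p -0.61, miR-1a-3p -0.72 and miR-29b-3p -0.89; with quantile normalization let-7k was -0.20 and miR-29b-3p -0.069. Without scaling miR-1a-3p was -0.012 and miR-29b-3p -0.18, with the replicate block -0.011 and -0.034, and with replicates 2 and 3 averaged -0.21 and -0.28. miR-143-3p was 0.22 with array weights and 0.25 without the 4 arrays. Leaving out 1 array in turn, values ran from -1.22 to 1.75 for miR-1a-3p, -0.66 to 0.86 for miR-29b-3p, -0.79 to 0.25 for miR-143-3p, -3.40 to 0.52 for miR-155-5p and -0.21 to 0.11 for miR-210-3p.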

Other observations

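Outside the rule for named miRNAs, and chosen after its values were seen, miR-188-5p was the largest difference among the 13 higher miRNAs with a catalogue number up to 1000. It read 7.09 and 6.68 at week 0 and 10.38, 10.65 and 10.81 on high fat at week 30 (3.72 ± 0.84, adjusted p, limma, 0.0231). The week 30 chow arrays were at 7.55, 8.53 and 9.07, below all 3 high fat arrays, and the difference between the diets was 2.23, which is not called. The others of these 13 included miR-149-3p (2.64) and miR-483-5p (2.51), the latter from the imprinted Igf2 gene.

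The Sfmbt2 cluster, a large set of related miRNAs within an imprinted gene active in the placenta, had 15 members tested and none called in either direction, with differences from -0.63 to 1.02. Among all tested, 20.4% were called. The epithelial list had 1 of 9 called lower, miR-182-5p, against 4.27% of all tested, and miR-200c-3p and miR-429-3p were not well above background on any of the 5 arrays.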
